A study of Mus musculus with 12 samples.

Results

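Endothelin signalling was followed through 3 genes: Edn1, which encodes the precursor of the peptide endothelin-1, Ednrb, which encodes the endothelin B receptor, and Ece1, which encodes endothelin converting enzyme 1, the protease that cuts the inactive precursor (big endothelin-1) to the active peptide. They were found by symbol and are 3 of the 55335 genes listed per library. In bone marrow-derived dendritic cells (BMDC), lipopolysaccharide (LPS) raised Edn1 from 1.48 ± 0.398 to 86.9 ± 17.3 CPM (library-scaled counts, mean ± SD, n = 3). JSH-23 was accompanied by opposite levels of ligand and receptor: Edn1 was lower and Ednrb was higher with the inhibitor, both with and without LPS. Edn1 was chosen by its difference with LPS and Ednrb by its difference without LPS. Ece1 rose with LPS with or without JSH-23, by 2.36-fold to 2.82-fold in these scaled counts and by less with library totals. Its resting level was 111 CPM in either case.

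The data were bulk RNA-seq of 12 mouse libraries in 4 groups of 3. WT was unstimulated BMDC, WTL was BMDC given 100 ng/ml LPS for 3 h, WT + JSH23 was BMDC given 100 µM JSH-23 for 3 h without LPS, and WTL + JSH23 received JSH-23 at that dose and time before the same LPS stimulation. All 12 libraries were from C57BL/6 mice of genotype CreER, so that every group carried the tamoxifen-inducible Cre (driven from Rosa26 according to the methods) and an intact Ctcf gene. Bone marrow was cultured with GM-CSF for 6 days with a change of medium every 2 days, and the study's methods describe selection of floating CD11c+ cells. JSH-23 is a small molecule that keeps RelA, a subunit of NF-κB, out of the nucleus, and the comparison addressed how far LPS-induced expression depends on that step. The labels do not give the age of the mice, and the methods give a single age range and both sexes for all experiments. The labels also do not say whether solvent was added to the groups without JSH-23 or whether these CreER cultures received 4-OH-tamoxifen. The methods call the 3 libraries of a condition biological replicates, and neither source says whether they came from separate mice or cultures.

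Endothelin-1 is a short peptide hormone best known as the strongest vasoconstrictor made by the blood vessel lining, and macrophages and dendritic cells can also make it after microbial stimulation. It acts through G protein-coupled receptors, endothelin A and endothelin B. The B receptor binds all 3 endothelins and also removes the peptide from the surroundings, and it is required for the development of enteric neurons and melanocytes.

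The members were chosen by measured values as well as by name. Edn1 was selected on its lower level in WTL + JSH23 than in WTL, where it held place 11 from the lowest of 14357 log2 fold changes, and Ednrb on its higher level in WT + JSH23 than in WT, where it held place 15 from the highest. Those contrasts, and the interactions that contain them, are therefore given below as descriptions with no test. The LPS comparisons of Edn1 and Ednrb were tested but share 3 libraries with the contrast that chose the gene. The effect of JSH-23 on Edn1 without LPS and on Ednrb with LPS shares no library with it, and no value of Ece1 entered the choice.

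Library totals lay between 24664724 and 34837847 expected counts. CPM denotes counts scaled to a common library total after trimmed mean of M values (TMM) scaling between libraries, and TPM is the length-corrected unit in which levels of different genes can be set side by side. Within groups, chi-square per degree of freedom between libraries was 2.33 to 4.52, except that replicate 3 of WTL + JSH23 differed from replicates 1 and 2 by 8.23 and 9.16. The 8 dendritic cell markers were all expressed, with a summed level of 17743 to 19924 TPM. Of the 8 endothelial cell markers, 4 were tested. Their summed level was 49.8 to 54.2 TPM in WT, 45.9 to 46.3 in WTL, 62.5 to 68.6 in WT + JSH23 and 56.3 to 69.4 in WTL + JSH23, nearly all of it from Vwf and Kdr, while Cldn5, Tek, Emcn and Robo4 had at most 7 counts in any library. The 8 fibroblast and stromal markers summed to 1.07 to 1.81 TPM in the unstimulated groups, 8.35 to 8.59 in WTL and 3.53 to 4.21 in WTL + JSH23, with Col3a1 at 0 in every library and at most 4 counts of Col1a1 and 2 of Col1a2. The melanocyte and glia markers summed to at most 1.7 TPM, with Tyr, Dct and Sox10 at 0. In bulk RNA, fewer cells of a type and less RNA per cell cannot be told apart.

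The promoters of the ligand and the receptor are shown because these genes had opposite levels under an inhibitor of a transcription factor. Both stretches are the 250 bases before the RefSeq start, from the RefSeq tables of build GRCm38.p6, written 5′ to 3′ on the strand of the gene. Capitals mark matches to the motifs searched.
Edn1 promoter, chr13:42301226-42301475, plus strand: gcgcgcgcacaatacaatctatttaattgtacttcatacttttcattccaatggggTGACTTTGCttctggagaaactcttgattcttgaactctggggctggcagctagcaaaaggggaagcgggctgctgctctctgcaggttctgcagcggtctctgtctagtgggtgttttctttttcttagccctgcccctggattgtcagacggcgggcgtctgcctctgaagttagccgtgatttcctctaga
Ednrb promoter, chr14:103843702-103843951, minus strand: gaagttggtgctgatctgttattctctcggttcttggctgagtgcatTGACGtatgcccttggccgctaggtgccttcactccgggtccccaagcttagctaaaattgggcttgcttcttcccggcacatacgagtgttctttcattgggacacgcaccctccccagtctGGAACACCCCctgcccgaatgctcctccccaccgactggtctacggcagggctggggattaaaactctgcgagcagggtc
In the Edn1 stretch the capitals are the antioxidant element core TGACNNNGC at -194 to -186 from the start. In the Ednrb stretch they are the CREB/ATF half-site TGACG at -203 to -199 and a match to the NF-κB decamer, on the opposite strand, at -80 to -71. Searched on both strands of 32851 promoter windows that also hold 50 bases after the start, these motifs were present in 12.4%, 20.8% and 8.46% of windows. The Edn1 window held no match to the NF-κB decamer, to the AP-1 site TGANTCA (7.81% of windows) or to TATAAA (13.6%), and its first bases after the start held the GATA site AGATAA (11.2%) and the hypoxia element core ACGTG (19.6%), both on the opposite strand. Of the 4 RefSeq starts of Ece1, only the window of the start at position 137913558 of chromosome 4 held a match, to ACGTG at -90 to -85, where it occurs on both strands. These matches describe letters in the windows, and binding was not measured in these libraries. Sites outside the windows, or spelled with other letters, were not searched, so a missing match does not mean that a promoter lacks the element.

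Edn1 lies on chromosome 13 at 42301476 to 42307990 on the plus strand (GENCODE M21, GRCm38, gene ENSMUSG00000021367.8) and has 1 annotated transcript of 2139 bases. Its level was 1.8, 1.59 and 1.03 CPM in WT and 101, 91.6 and 67.7 CPM in WTL. With JSH-23 it was 0.246, 0.109 and 0.306 CPM without LPS and 8.61, 9.43 and 9.81 CPM with LPS. The 4 groups did not overlap, in the order WT + JSH23, WT, WTL + JSH23 and WTL, and every library of WTL + JSH23 lay above the unstimulated libraries and below every library of WTL. Edn1 was chosen for lying lower in WTL + JSH23 than in WTL, so this order is a description. In TPM the group means were 0.187 ± 0.0874, 1.26 ± 0.338, 6.86 ± 0.365 and 58.8 ± 10.7 in that order, so that Edn1 lay above 2.8%, 18.5%, 45.1% and 84.9% of the genes tested.

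LPS raised Edn1 by 5.86 ± 0.155 on the log2 scale (SE; 58.1-fold, adjusted p = 3.36e-18, edgeR quasi-likelihood test with Benjamini-Hochberg adjustment over all genes), place 19 from the highest of 14357 changes. In the presence of JSH-23 the LPS change was 5.35 ± 0.319 (40.7-fold, adjusted p = 5.57e-12, edgeR), place 17 from the highest. In the contrast that chose the gene, Edn1 was 9.41-fold lower in WTL + JSH23 than in WTL, a log2 fold change of -3.23 ± 0.12. On the log2 scale the LPS change with JSH-23 minus that without was -0.51 ± 0.654, with a 95% interval of -2.02 to 0.99, again as a description. This SE was derived from F and is larger than the SEs of the 2 LPS changes, 0.155 and 0.319, would give, so the interval is approximate. The difference was -1.99 on log2(TPM + 1) by limma. There the added 1 is near or above the resting means of 1.26 TPM in WT and 0.187 TPM in WT + JSH23, which shrinks the 2 LPS folds unequally. Leaving out each library gave -0.81 to -0.23. With the interval above, the size of the difference was not settled. In CPM the rise was 85.4 without JSH-23 (65.9 to 100.2 over the 9 pairs of libraries) and 9.06 with it (8.3 to 9.7). The 2 measures thus differed: the LPS folds were 58.1 and 40.7, while the ranges of transcript gained in CPM did not overlap. The summed fibroblast and stromal markers, mostly Pdgfra and Pdgfrb, followed the same order in the LPS groups (8.35 to 8.59 TPM in WTL and 3.53 to 4.21 in WTL + JSH23), with Col3a1 at 0. The summed macrophage markers were 1631 to 1739 TPM in WTL and 1363 to 1383 in WTL + JSH23, with 6 of 8 called lower and Cd68 higher, and the neutrophil markers were 217 to 226 and 171 to 189.8 TPM, with all 6 tested called lower. The part of these cells in the Edn1 difference was not tested.

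The test of JSH-23 on Edn1 that shares no library with the contrast that chose it was at rest. WT libraries held 59, 56 and 30 counts of Edn1 and WT + JSH23 libraries 8, 3 and 9. All 3 JSH-23 libraries were below all 3 WT libraries, and Edn1 fell by 2.72 on the log2 scale (SE 0.476; 6.59-fold, adjusted p = 7.71e-05, edgeR; 95% interval -3.82 to -1.62), place 21 from the lowest. Of all genes tested, 2.94% were called lower in this comparison and 2.43% higher, a call being an adjusted p under 0.05 with over 2-fold change. Summed over libraries and scaled, 145 against 20 counts gave a ratio of 6.7 with an exact 95% interval of 4.18 to 11.3, which covers counting error only. The summed macrophage markers were 2391 to 2515 TPM in WT and 1762 to 1819.8 TPM in WT + JSH23, and their part in this difference was not tested. Counting was not stated to use strand, so reads of the antisense gene Gm47118, which overlaps Edn1, could not be told apart. Gm47118 was assigned at most 10 counts in any library, and at most 0.844% of the count of Edn1 in the same library.

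Ednrb lies on chromosome 14 at 103814625 to 103844402 on the minus strand (ENSMUSG00000022122.15), with 3 annotated transcripts and no overlapping gene. Its level was 3.0, 3.73 and 2.76 CPM in WT and 11.7, 10.8 and 13.2 CPM in WTL. In WT + JSH23 it was 50.6, 40.5 and 48.6 CPM, and in WTL + JSH23 it was 91.6, 78.2 and 106 CPM. The groups did not overlap and their order, WT, WTL, WT + JSH23 and WTL + JSH23, differed from that of the ligand: each JSH-23 library held more receptor transcript than any library without the inhibitor. Ednrb was chosen for lying higher in WT + JSH23 than in WT, so this order is a description. The mean level was 1.53 ± 0.263 TPM in WT, 4.87 ± 0.677 in WTL, 22.7 ± 2.51 in WT + JSH23 and 39.0 ± 6.11 in WTL + JSH23, above 20.8%, 42.1%, 66.3% and 78.7% of the genes tested.

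For Ednrb, the test of JSH-23 that shares no library with the contrast that chose it was under LPS. Ednrb was 2.96 ± 0.107 higher on the log2 scale in WTL + JSH23 than in WTL (7.79-fold, adjusted p = 4.83e-15, edgeR; 95% interval 2.71 to 3.21), place 34 from the highest, where 3.75% of genes were called higher. Without replicate 3 of WTL + JSH23, the library that stood apart and held the most Ednrb, the change was 2.85 (adjusted p = 3.28e-17, edgeR). In the contrast that chose the gene, WT + JSH23 was 14.6-fold above WT, a log2 fold change of 3.87 ± 0.133. The summed endothelial markers were also higher in both JSH-23 groups. Of the 4 tested, Vwf, Cdh5 and Esam rose with JSH-23 under LPS, by 1.25, 1.34 and 1.71 on the log2 scale, and Kdr fell by 2.43. The part of such cells in the Ednrb difference was not tested, and Cldn5, Tek, Emcn and Robo4 were at or near 0 as given above.

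LPS raised Ednrb by 1.89 ± 0.163 on the log2 scale (3.7-fold, adjusted p = 1.57e-09, edgeR). With JSH-23 present, LPS raised it by 0.98 ± 0.089 (1.97-fold, adjusted p = 5.77e-09, edgeR), just under the 2-fold limit. On the log2 scale the LPS change was thus 0.91 smaller with JSH-23, an interaction of -0.91 ± 0.19 given as a description. In CPM the order was the other way round: the LPS rise was 8.73 without JSH-23 (7.07 to 10.4 over 9 pairs) and 45.5 with it (27.6 to 65.8). A larger gain of transcript was thus a smaller multiple of the higher resting level. The abundance-weighted length of Ednrb transcripts was 3602 ± 127 bases in WT, 3394 ± 89.1 in WTL, 3562 ± 40.0 in WT + JSH23 and 3552 ± 55.5 in WTL + JSH23. The WTL libraries, at 3322 to 3494 bases, lay below the others by little, since replicate 1 of WTL + JSH23 was at 3500. This difference was not tested.

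**Figure D1:**
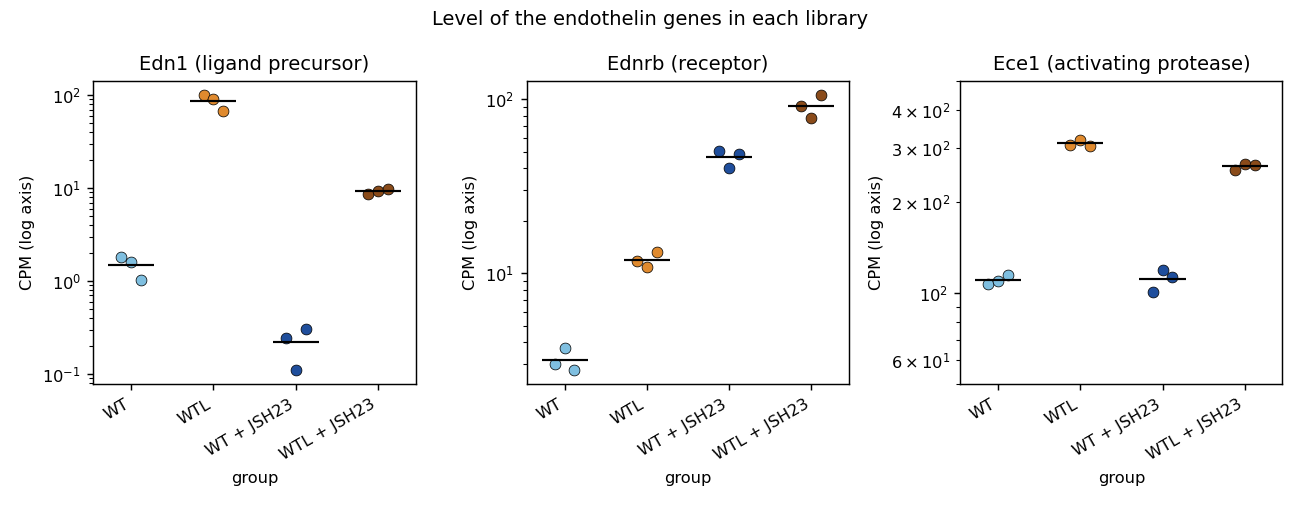
Level of Edn1, Ednrb and Ece1 in each library, in CPM on log axes that differ between panels. Points are libraries, lines are group means and the x axes give the 4 groups. Edn1 was lowest in WT + JSH23 (0.22 CPM) and highest in WTL (86.9 CPM), Ednrb was lowest in WT (3.16 CPM) and highest in WTL + JSH23 (92.1 CPM), and Ece1 overlapped between WT and WT + JSH23.

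Ece1 lies on chromosome 4 at 137862237 to 137965229 on the plus strand (ENSMUSG00000057530.14), with 4 annotated transcripts, 3 of them protein-coding. It was the most abundant of the members in every group by TPM. Its level was 107, 109.7 and 115 CPM in WT, 101, 119 and 113 in WT + JSH23, 308, 320.2 and 306 in WTL and 255, 267 and 264 in WTL + JSH23. The unstimulated groups overlapped, whereas both LPS groups lay above them and apart from each other.

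LPS raised Ece1 by 1.49 ± 0.0486 on the log2 scale (2.82-fold, adjusted p = 1.02e-16, edgeR) and, with JSH-23, by 1.24 ± 0.0487 (2.36-fold, adjusted p = 5.03e-15, edgeR). Ece1, which was not chosen by its values, was thus called higher with LPS alone, where 7.36% of the genes tested were called higher. Edn1 and Ednrb were called too. Their LPS comparisons share libraries with the contrasts that chose them, so they are not counted against that share. With JSH-23 present, Ece1 was called higher by the 2-fold limit as well as the adjusted p, where 5.85% of genes were. Edn1 was called too and is left out of this share for the same reason. The size of the Ece1 rise depended on the scaling. By library totals it was 1.16 without and 1 with JSH-23 on the log2 scale, the latter at the 2-fold limit. In the deposited TPM, Ece1 in WTL was 2.26-fold its level in WT. At rest JSH-23 gave a log2 fold change of 0.01 ± 0.0493 (adjusted p = 0.928, edgeR), with a 95% interval of -0.11 to 0.12.

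Under LPS, Ece1 fell by 0.25 on the log2 scale with JSH-23 (SE 0.047; 1.19-fold, adjusted p = 0.000144, edgeR; 95% interval -0.36 to -0.14), and by adjusted p alone 24.2% of genes were called lower and 24.5% higher. The interaction was -0.26 ± 0.068 (adjusted p = 0.0118, edgeR), where 18% of genes were called, 8.44% negative and 9.54% positive. With limma on log2(TPM + 1), which changes the unit, the scaling and the tool together, neither was called (log2 fold change -0.08, adjusted p = 0.28, and interaction -0.16, adjusted p = 0.194). By library totals in place of TMM, with counts and edgeR kept, the fall was 0.12 (log2 fold change -0.12, adjusted p = 0.0333) and the interaction lost its call (-0.17, adjusted p = 0.0871). The summed macrophage and neutrophil markers were also lower in WTL + JSH23 than in WTL, as given for Edn1, and their part in this difference was not tested. TPM means under LPS were 106 ± 1.61 without and 100.3 ± 0.977 with JSH-23. The antisense gene Gm13012 overlaps Ece1 and was assigned 36 to 86 counts per library, 0.465% to 2.23% of those of Ece1. The weighted transcript length of Ece1 was 3406 to 4213 bases in WT + JSH23 (3853 ± 410.2), a wider range than in WT (4059 ± 64.0), WTL (4024 ± 20.7) or WTL + JSH23 (3906 ± 83.9).

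**Figure D2:**
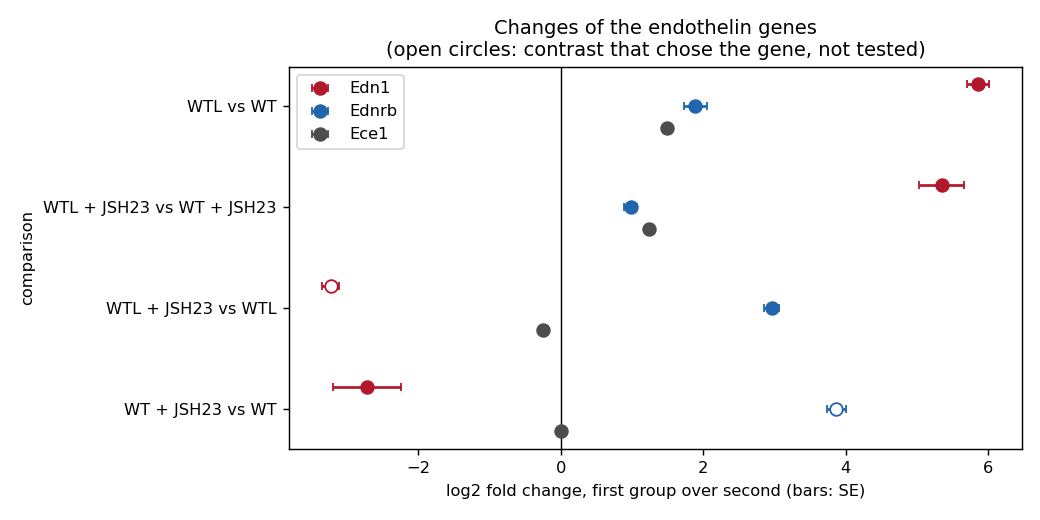
Log2 fold changes of Edn1, Ednrb and Ece1 in the 4 comparisons (x axis, first group over second; y axis, comparison), with bars for SE. Filled circles were tested and open circles are the contrasts that chose the gene. JSH-23 changes of Edn1 (-3.23 and -2.72) and Ednrb (2.96 and 3.87) lie on opposite sides of 0, and all LPS changes lie above 0.

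The balance of ligand and receptor transcripts was read as the ratio of Edn1 to Ednrb TPM in each library, which describes transcripts, not peptide or surface receptor. It was 1.12, 0.738 and 0.654 in WT and 14.8, 14.0 and 8.35 in WTL. In WT + JSH23 it was 0.00857, 0.00455 and 0.011, and in WTL + JSH23 it was 0.162, 0.214 and 0.161. Ligand and receptor transcripts were thus within 1.53-fold of each other in resting cells, the ligand exceeded the receptor in every WTL library, and the receptor exceeded the ligand in every JSH-23 library, by 4.67-fold to 6.22-fold with LPS. The ratio joins both contrasts that chose the genes and is a description.

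**Figure D3:**
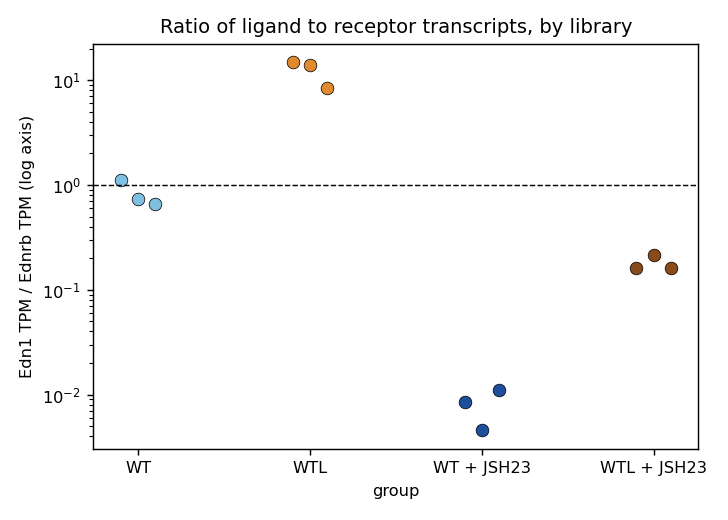
Ratio of Edn1 to Ednrb TPM in each library (y axis, log scale) by group (x axis), with a dashed line at equal levels. WTL libraries lie at 8.35 to 14.8, WT libraries at 0.654 to 1.12, WTL + JSH23 libraries at 0.161 to 0.214 and WT + JSH23 libraries at 0.00455 to 0.011.

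The rest of the endothelin system was read from a list of 14 genes, of which 7 passed the count filter. Among ligands and receptors, Edn2 and Edn3, the other endothelins, and Ednra, the endothelin A receptor, had 0 counts in all 12 libraries. At this depth a count of 0 allows up to 3 counts, or 0.0861 to 0.122 CPM of the unscaled total of a library. The alternative activating proteases Kel and Cma1 (chymase) and Mme (neprilysin), which degrades endothelin, also had 0 counts, and Ece2 had at most 7. Edn1 and Ednrb were thus the detected ligand and receptor, and Ece1 was the converting enzyme with counts above the filter.

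Furin, a proprotein convertase that cuts the endothelin precursor before Ece1 does, followed Ece1 with LPS. Its level was 121 ± 1.4 CPM in WT, 286 ± 3.38 in WTL, 144 ± 5.97 in WT + JSH23 and 294 ± 7.55 in WTL + JSH23. LPS raised it by 1.24 on the log2 scale (adjusted p = 3.63e-17, edgeR) and by 1.03 with JSH-23 (adjusted p = 1.52e-15, edgeR). At rest JSH-23 raised Furin by 0.25 (adjusted p = 1.71e-05, edgeR), and under LPS the log2 fold change was 0.04 (adjusted p = 0.438, edgeR). This last value became 0.15 with an adjusted p of 0.0112 on log2(TPM + 1) by limma.

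Pcsk7, a convertase of the same family, was 53.4 ± 1.61 CPM in WT and 53.4 ± 0.288 in WTL, and fell with JSH-23 to 41.9 ± 0.867 at rest and 39.4 ± 2.04 under LPS. The falls were 0.35 (adjusted p = 1.87e-06) and 0.44 (adjusted p = 9.83e-08) on the log2 scale by edgeR. Mmp2, a matrix metalloproteinase that can also cleave big endothelin-1, fell by 0.78 with JSH-23 at rest and by 1.03 under LPS on the log2 scale (adjusted p = 4.65e-10 and 5.2e-12, edgeR), from 37.5 ± 0.489 to 21.8 ± 0.938 CPM and from 47.3 ± 1.29 to 23.0 ± 2.3 CPM. Ctsa, a lysosomal carboxypeptidase known to inactivate endothelin-1, was 295 ± 9.77 CPM in WT and 246 ± 3.09 in WTL, and fell by 0.26 with LPS (adjusted p = 7.25e-06, edgeR). With JSH-23 under LPS it was 0.18 higher (adjusted p = 0.000905, edgeR).

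Of the 4 tested genes of the system that are not members, LPS raised Furin and Mmp2 and lowered Ctsa, while Pcsk7 had a log2 fold change of 0.00 (adjusted p = 0.99, edgeR), which became -0.33 by library totals (adjusted p = 1.66e-06, edgeR). Mmp2 rose by 0.33 with LPS (adjusted p = 1.85e-05, edgeR), but by library totals its change was 0.00, and with JSH-23 its LPS change went from 0.08 (adjusted p = 0.291, edgeR) to -0.16 (adjusted p = 0.0417, edgeR) by library totals, a setting that moves the median of all genes to -0.38 and -0.26 in these comparisons. By adjusted p alone, 31% of all genes were called higher and 34.7% lower with LPS. JSH-23 under LPS raised Ctsa and lowered Pcsk7 and Mmp2, and at rest it raised Furin and lowered the same 2. Of these JSH-23 changes, that of Mmp2 under LPS was the one past 2-fold, where 3.25% of genes were called lower.

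**Figure D4:**
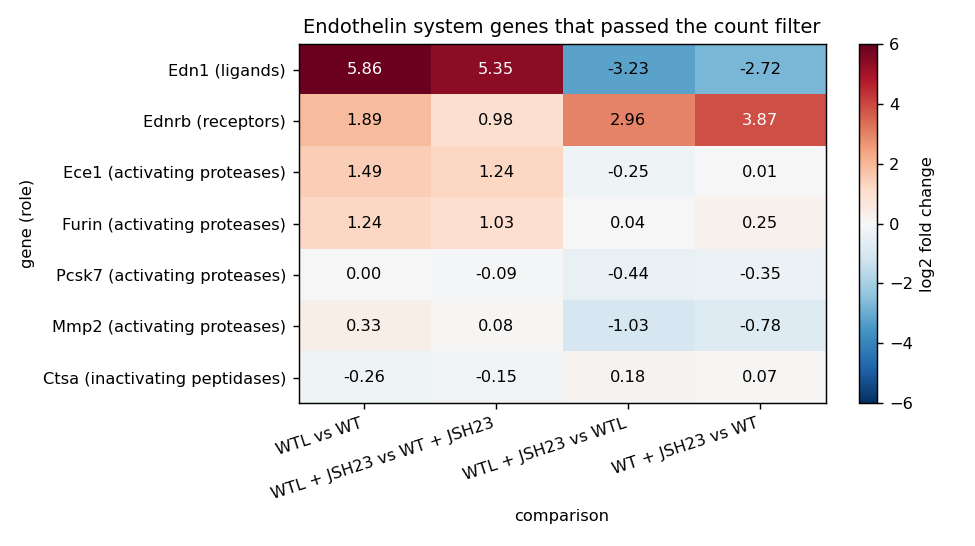
Log2 fold changes (colour scale and printed values) of the 7 endothelin system genes that passed the count filter (y axis, with role), in 4 comparisons (x axis). Edn1 has the darkest LPS cells (5.86 and 5.35), Ednrb the highest JSH-23 values (2.96 and 3.87), and the other 5 genes lie between -1.03 and 1.49.

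Both receptors signal through G proteins to phospholipase C, calcium and protein kinase C, and arrestins and RGS proteins end the signal. Of 25 such genes listed, 23 were tested. With LPS 4 were called higher and 11 lower by adjusted p, where 31% and 34.7% of all genes were. The median log2 fold change was -0.14 against -0.05 over all genes. With LPS under JSH-23 6 were higher and 8 lower, where 27.4% and 27.1% of all genes were. Plcb2, a phospholipase C of blood cells, fell by 1.35 with LPS and by 1.11 with LPS under JSH-23, and Arrb1, an arrestin, fell by 1.33 with LPS, where 9.09% of genes were called lower with LPS and 4.49% with LPS under JSH-23. With JSH-23, 8 were higher and 7 lower under LPS and 4 were higher and 11 lower at rest, where 24.5% and 24.2% of all genes were called in those directions under LPS and 18.8% and 22.1% at rest. The 8 became 5 without replicate 5 of WTL, and the 4 became 2 without replicate 4 or 6 of WT or replicate 3 of WT + JSH23. Rgs2, an inhibitor of Gq signalling, fell by 1.27 under LPS and by 1.55 at rest, from 48.4 ± 3.44 to 16.6 ± 1.64 CPM. Rgs4 had 0 counts and Rgs5 at most 1. By library totals, LPS gave 2 higher and 18 lower and JSH-23 under LPS 12 higher and 5 lower, so the split of small changes depended on the scaling.

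Transcription factors known at the Edn1 promoter were listed as a second group, and all 15 were tested. With LPS 8 were called higher and 4 lower by adjusted p (6 and 7 by library totals), and with LPS under JSH-23 8 were higher and 1 lower (6 and 4 by library totals). Over all genes the shares were 31% and 34.7% with LPS and 27.4% and 27.1% with LPS under JSH-23, and without replicate 5 of WTL the 4 lower with LPS became 2. Nfkb1, the precursor of the p50 partner of RelA, rose by 1.25 with LPS and by 1.10 with LPS under JSH-23. Hif1a, the hypoxia factor, rose by 1.00 with LPS, and Fos, an AP-1 subunit, fell by 1.76. With JSH-23, 3 were higher and 6 lower under LPS (5 and 4 by library totals), none beyond 2-fold. Over all genes 24.5% were higher and 24.2% lower under LPS, and 18.8% and 22.1% at rest. At rest 2 of the factors were higher and 5 lower, among them Klf2, a Krüppel-like factor of endothelium and leukocytes, which fell by 1.78, and Fos, which fell by 1.17. Klf2 was 6.69 ± 0.434 CPM in WT and 1.94 ± 0.176 in WT + JSH23.

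Other vasoactive peptide and nitric oxide genes were compared as a further group, in which 11 of 25 were tested. LPS raised 4 and lowered 3 without JSH-23, and raised 4 and lowered 2 with it (4 and 5 by library totals), where 31% and 34.7%, and 27.4% and 27.1%, of all genes were called. The lower counts moved with single libraries: 3 became 1 without replicate 4 of WT, and 2 became 1 without replicate 6 of WT, replicate 4 or 6 of WTL, replicate 1 or 2 of WT + JSH23, or replicate 1 or 2 of WTL + JSH23. The same 2 became 3 without replicate 4 or 5 of WT or replicate 3 of WTL + JSH23. They became 4 with no filter on low counts and on log2(TPM + 1) by limma. Nppc, which encodes C-type natriuretic peptide, had 3 to 6 counts per library in WT and 2 to 3 in WT + JSH23, close to the limit of 3 counts, and rose with LPS in both arms. Summed and scaled, 892 against 13 counts gave a ratio of 85.7 (exact 95% interval 49.9 to 162) without JSH-23, and 431 against 8 gave 63.1 (31.7 to 147) with it, counting error only. Adm, which encodes the vasodilator adrenomedullin, rose by 2.64 and 2.62, its receptor gene Calcrl rose by 2.39 and 2.08, and Nos2, the inducible nitric oxide synthase, rose by 2.51 and 1.74, without and with JSH-23. JSH-23 under LPS raised 2 and lowered 4, with Nppc falling by 1.01 on the log2 scale, and at rest it raised 3 and lowered 1, none beyond 2-fold. The 1 lower became 0 without replicate 6 of WT or replicate 1 or 3 of WT + JSH23. Over all genes 24.5% were called higher and 24.2% lower under LPS, and 18.8% and 22.1% at rest.

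The protein-coding genes whose log2 CPM followed each member most closely over the 12 libraries were found by Pearson r, as a description, among 8183 genes with at least 10 CPM in their highest group. For Edn1 they were Tcf4 (r = 0.996), Git2 (r = 0.994) and Saa3 (r = 0.994). Saa3, an acute-phase serum amyloid gene, was 416 ± 6.6 CPM in WT, 1758 ± 64.9 in WTL, 242 ± 9.29 in WT + JSH23 and 809 ± 97.8 in WTL + JSH23, the same order as Edn1 over a smaller range. For Ednrb they were Mylip (r = 0.994), Me1 (r = 0.992) and Larp1b (r = 0.991). Me1, the cytosolic malic enzyme, was 18.8 ± 0.598, 25.2 ± 1.28, 39.5 ± 2.34 and 46.4 ± 3.74 CPM in WT, WTL, WT + JSH23 and WTL + JSH23. For Ece1 they were Ntng2 (r = 0.998), Zc3h12a (r = 0.997) and Ciapin1 (r = 0.997). Zc3h12a, an RNase that destroys inflammatory transcripts, was 32.5 ± 1.29, 189 ± 4.74, 30.9 ± 1.65 and 137 ± 5.39 CPM in the same groups. The 12 points fall into 4 groups of 3, so these values mainly compare group means.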

How the data were processed

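The authors trimmed reads with Trim Galore, aligned them to mm10 with STAR (version 2.6.0c in the submitters' processing notes) and estimated expression with RSEM over a GENCODE release that is not given in the sources used here. The deposited expected counts are per gene and unscaled, and the deposited TPM values and transcript lengths were derived by the authors' RSEM run. The deposited FPKM column was not used. The labels and the methods name different RNA selection kits, which was not settled. Gene identifiers were matched without version to GENCODE M21 (55154 of 55335). Expected counts were rounded, and none of those of Edn1, Ednrb and Ece1 was fractional. Between 7.75% and 8.52% of genes had a fractional expected count.

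The filterByExpr function of edgeR 4.0.16 (R 4.3.3) kept 14357 genes with 99.94% to 99.95% of counts. Libraries were scaled by TMM and fitted with the edgeR quasi-likelihood test, with 1 mean per group and 8 residual degrees of freedom. P values were adjusted by Benjamini-Hochberg over all genes tested. Calls required an adjusted p under 0.05 with over 2-fold change, or adjusted p alone where stated and for the interaction (LPS change with JSH-23 minus that without). SE is the absolute log2 fold change over the square root of F, and 95% intervals use the t distribution. The fit was tested on simulated data. Alternatives used limma 3.58.1 and DESeq2 1.42.0. Named genes were the members, all genes of the endothelin system list, up to 3 called genes of largest change per other list and comparison, and the 3 genes most like each member. The members and lists were chosen with earlier results of these data known. The neutrophil markers summed to 171 to 226 TPM and the mast cell and basophil markers to 1.88 to 4.39 TPM.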

Additional observations from a re-analysis of the deposited data

Results flagged for a closer look

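The LPS change differed with and without JSH-23 for 11 of the genes named, by the edgeR interaction test at adjusted p under 0.05. Genes outside the endothelin system were named here because they passed this test, so the 11 cannot be set against the share over all genes. In the full lists, 4 of 23 receptor signalling genes were called positive and 0 negative. Of 15 promoter factors 2 were positive and 3 negative, and of 11 vasoactive genes 0 and 2. Over all genes 9.54% were positive and 8.44% negative. In this system the differences were -0.26 for Ece1, -0.21 for Furin and -0.25 for Mmp2 on the log2 scale. Their adjusted p values by edgeR were 0.0118, 0.00831 and 0.0424, and all 3 missed the threshold on log2(TPM + 1) by limma and by library totals. Mmp2 also missed it when any of 10 of the 12 libraries was left out, the exceptions being replicate 1 of WT + JSH23 and replicate 1 of WTL + JSH23, with adjusted p up to 0.11.

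Among receptor signalling genes the differences were 0.66 for Itpr3, an inositol trisphosphate receptor (adjusted p = 0.00126), 0.44 for Arrb1 (adjusted p = 0.000298) and 0.31 for Rgs3 (adjusted p = 0.00975), all by edgeR. Itpr3 was 16.5 ± 0.415 CPM in WT, 8.58 ± 1.02 in WTL, 13.1 ± 1.34 in WT + JSH23 and 10.7 ± 1.02 in WTL + JSH23. Among promoter factors they were 1.14 for Klf2 (adjusted p = 0.000569), 0.97 for Fos (adjusted p = 0.00166) and -0.24 for Junb (adjusted p = 0.0249). Junb missed the threshold without replicate 5 of WT, replicate 5 of WTL, replicate 2 or 3 of WT + JSH23, or replicate 1 of WTL + JSH23 (adjusted p from 0.061 to 0.0851), and by library totals and TPM. Among vasoactive genes they were -0.76 for Nos2 (adjusted p = 0.000162) and -0.31 for Calcrl (adjusted p = 0.0124), and Calcrl missed the threshold by library totals (adjusted p = 0.0602) and TPM.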

How the results depend on the processing

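Of 248 values of the 11 tested member comparisons under the alternatives, 243 kept their direction and their side of the threshold and none reversed. The exceptions were Ece1 in WTL + JSH23 against WTL (-0.08 with TPM + 1 and with TPM + 0.1 by limma, adjusted p = 0.28) and its interaction (-0.17 by library totals, -0.16 with either TPM pseudocount, adjusted p = 0.194 and 0.198). These TPM settings change unit, scaling and tool together. On log2(TPM + 1) the described values moved to -2.91 for Edn1 in WTL + JSH23 against WTL, 3.23 for Ednrb in WT + JSH23 against WT, and -1.99 and -0.46 for their interactions, and genes called fell to 1345, 613, 404 and 318 from 2361, 1484, 1005 and 771 for LPS without JSH-23, LPS with JSH-23, JSH-23 under LPS and JSH-23 at rest. Scaling by library totals moved the median of all genes to -0.38, -0.26, 0.15 and 0.03 in these comparisons and the share of called genes that were higher from 44.7%, 56.6%, 53.5% and 45.3% to 20.9%, 32.6%, 66.9% and 49.9%, and for the interaction from 53.1% to 79.3%. Leaving out each library gave Edn1 in WT + JSH23 against WT -3.0 to -2.43, Ednrb in WTL + JSH23 against WTL 2.85 to 3.07, and the Ece1 interaction -0.32 to -0.2 (adjusted p up to 0.0422). For genes of the lists, 46 gene and comparison pairs gave 1033 values under alternatives chosen after seeing the data: 987 were on the same side, 30 lost and 15 gained a call, and Mmp2 in WTL + JSH23 against WT + JSH23 reversed to -0.16 by library totals. Without replicate 3 of WTL + JSH23, receptor signalling genes with JSH-23 under LPS were 6 higher and 7 lower in place of 8 and 7. Correlations of deviations from the group mean were 0.014 to 0.061 between libraries of the same replicate number. Between different numbers they were -0.056 to 0.035, so whether the numbers mark a weak pairing was not settled. With the replicate block the LPS changes were 5.87 and 5.35 for Edn1, 1.89 and 0.98 for Ednrb and 1.49 and 1.24 for Ece1, the Ece1 interaction was -0.25, and 2968 genes against 2582 had an interaction. No paired analysis was possible for the JSH-23 comparisons because their groups share no replicate number. Counts of 3 to 9 limit the precision of Edn1 in WT + JSH23.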
